A study of Mus musculus with 12 samples.

Results

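The genes described are 10 known regulators and markers of undifferentiated spermatogonia, *Zbtb16*, *Id4*, *Gfra1*, *Ret*, *Etv5*, *Nanos2*, *Nanos3*, *Sall4*, *Foxo1* and *Lin28a*. They were taken by name from the 21468 protein-coding genes of known strand in the RefSeq table of GRCm38.p6, the assembly behind mm10. For each gene it was asked whether a peak of H3K36ac, acetylation of lysine 36 of histone H3, was called within 3 kb of its start or in its body. The 6 peak lists came from 3 WT and 3 *Sirt7*-/- male mice of the 129S1/Sv strain at postnatal day (Pnd) 5, numbered as replicates 2, 3 and 4 in each genotype. *Sirt7*-/- mice lack the histone deacetylase gene *Sirt7* in every cell, in the germ cells and the somatic cells of the testis alike. Each list came from a single ChIP-seq library of 50000 cells from a different mouse, and was called by the authors against the input library of the same number. The cells were enriched for spermatogonia by differential plating and were not sorted. A comparison of the genotypes asks where removal of SIRT7 was accompanied by a called peak at these genes.

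Spermatogonial stem cells are the undifferentiated germ cells that keep spermatogenesis going throughout adult life. They depend on GDNF, a ligand made by their somatic neighbours and bound by the co-receptor GFRA1, which passes the signal on through the receptor tyrosine kinase RET. Transcription factors such as ETV5, PLZF, SALL4 and FOXO1 and RNA-binding proteins such as NANOS2 hold the cells in the undifferentiated state. H3K36ac is found mainly around the starts of active genes in many organisms, and SIRT7 is an enzyme that removes it.

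The lists differed in length. The WT lists held 906, 64 and 294 peaks in replicates 2, 3 and 4, and the *Sirt7*-/- lists held 2840, 2045 and 2591. A promoter peak, here a peak with at least 1 base within 3 kb of a gene start, was called at 4.38%, 0.317% and 1.35% of the 21468 protein-coding starts in WT replicates 2, 3 and 4. In the *Sirt7*-/- replicates of the same numbers the shares were 13.2%, 9.73% and 11.7%. These shares are the background for every count below, and WT replicate 3 could contribute few calls of any kind. The deleted gene *Sirt7* had no peak within 3 kb of its start or in its body in any of the 6 samples, and the nearest peak lay 7647 bp away, so the lists do not check the deletion.

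Of the 10 genes, 4 had a promoter peak in at least 1 *Sirt7*-/- sample and 0 had a promoter peak in a WT sample. The 4 genes were *Foxo1*, *Zbtb16*, *Gfra1* and *Etv5*. Over all protein-coding genes, 19.3% had a promoter peak in at least 1 *Sirt7*-/- sample and 5.12% in at least 1 WT sample, so a count of 0 among 10 genes in WT lies close to the background. *Sirt7*-/- replicate 2 held 3 of the genes and *Sirt7*-/- replicates 3 and 4 held 1 each, a mean of 1.67 ± 1.15 genes per sample (SD, n = 3). The WT samples held 0 each. Over all protein-coding genes the mean share called per sample was 11.6% in *Sirt7*-/- and 2.02% in WT samples. *Sirt7*-/- replicate 2 is also the longest list, and without it 2 of the 10 genes had a promoter peak in a *Sirt7*-/- sample. *Sirt7*-/- replicates 3 and 4 called 9.73% and 11.7% of all protein-coding genes, and their joint share was not computed.

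**Figure D1:**
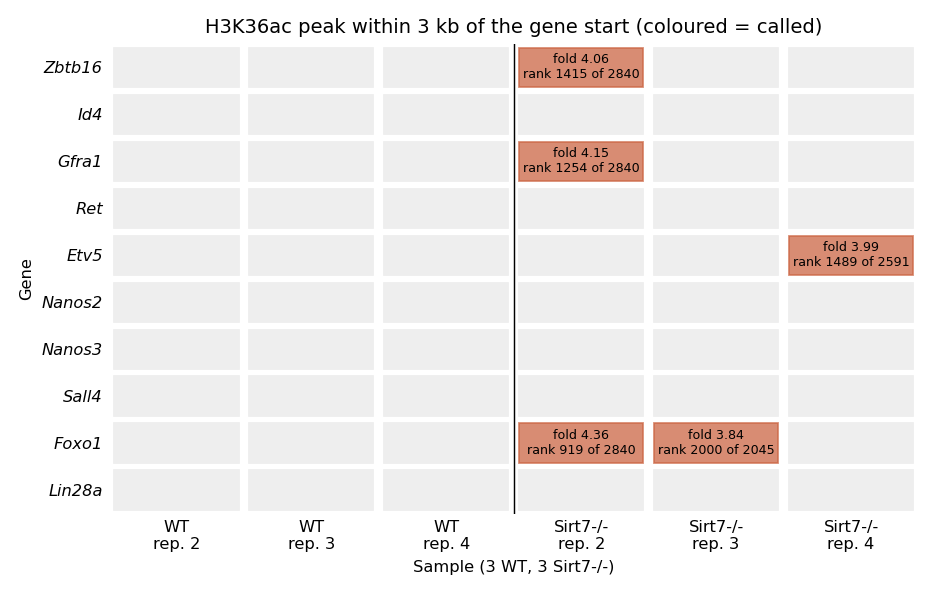
Each row is a gene and each column a sample, and a coloured field marks a called H3K36ac peak within 3 kb of the gene start, with the authors' fold over input and the rank of the peak by that fold within its list. All 5 calls fall in *Sirt7*-/- samples, and 6 of the 10 rows are empty.

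Only *Foxo1* was called in more than 1 sample. Its promoter was called in 2 of the 3 *Sirt7*-/- samples and in 0 WT samples, a pattern of at least 2 *Sirt7*-/- and no WT samples that 6.47% of all protein-coding genes share. *Zbtb16*, *Gfra1* and *Etv5* were each called in exactly 1 *Sirt7*-/- and no WT sample, as were 8.16% of all protein-coding genes. No gene of the 10 differed between the genotypes in Fisher's exact test over samples (two-sided, p = 0.4 for *Foxo1* and p = 1 for each of the others, adjusted p = 1 for all 10 with Benjamini-Hochberg adjustment over the 21468 genes). With 3 samples against 3 this exact test cannot give a p under 0.1, and across all genes it called 0, a share of 0%, with 0 at an unadjusted p under 0.05. A gene that is not called may still carry the mark. In these bulk samples a weaker mark in every cell and a mark in fewer of the cells cannot be told apart.

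*Foxo1* encodes a forkhead transcription factor that is held in check by PI3K-AKT signalling and is needed for the maintenance of spermatogonial stem cells. The gene lies on the plus strand of chromosome 3 of mm10 from 52268337 to 52350109. In *Sirt7*-/- replicate 2 the peak ran from 52268466 to 52269661, a width of 1196 bp, and lay 129 to 1324 bp inside the gene. In *Sirt7*-/- replicate 3 it ran from 52267644 to 52268140, a width of 497 bp, and lay upstream of the gene, from -693 to -197 bp relative to its start. The peaks of the 2 samples did not overlap, with 325 bases between them, and neither covered the start itself. No peak was called there in *Sirt7*-/- replicate 4, where the nearest was 165 kb away, or in WT replicates 2, 3 and 4, where the nearest were 852, 80416 and 991 kb away.

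The 2 *Foxo1* peaks also stood at different places in their lists. The authors' fold over input was 4.36 in *Sirt7*-/- replicate 2, above the list's median of 4.05, and the peak ranked 919 of 2840 by fold. In *Sirt7*-/- replicate 3 the fold was 3.84, below the list's median of 4.68, and the peak ranked 2000 of 2045. By the authors' -log10 q, a measure of the significance of a peak over its input, the second peak ranked 2033 of 2045. It was among the weakest that were called at all. With a -log10 q of at least 2 required, *Foxo1* kept the peak of replicate 2 alone. The same pattern of calls over the 6 samples was shared by 247 protein-coding genes, *Foxo1* included, or 1.15%.

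*Zbtb16* encodes PLZF, a zinc finger repressor of transcription and the protein by which the purity of the cell preparations was checked, with the result shown for WT cells. It lies on the minus strand of chromosome 9 from 48651797 to 48836225. The peak of *Sirt7*-/- replicate 2 ran from 48836061 to 48837481 and was the only one of the 5 that covered a gene start. It reached from -1256 bp to 164 bp relative to the start, and its width of 1421 bp was greater than that of 96.7% of the peaks in its list. Its fold of 4.06 was close to the list's median of 4.05, and it ranked 1415 of 2840. By -log10 q, at 1.98 against a list median of 2.18, it ranked 1621 of 2840. With a -log10 q of at least 2 required, *Zbtb16* lost its call. The nearest peak in any other list was 147904 bp away. In the other 2 *Sirt7*-/- samples the peak nearest to *Zbtb16* was that at *Usp28*, 149 kb from the start, and in the WT samples the nearest peaks were between 1932 and 3212 kb away.

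Of the receptor pair, *Gfra1* alone was called, and in *Sirt7*-/- replicate 2 only. *Gfra1* encodes the co-receptor that binds GDNF at the cell surface, and lies on the minus strand of chromosome 19 from 58235581 to 58455946. Its peak in *Sirt7*-/- replicate 2 ran from 58454474 to 58454810, was 337 bp wide and lay 1136 to 1472 bp inside the gene. The fold was 4.15 and the rank 1254 of 2840. The window of 3 kb around this peak also takes in the start of *Gm41876*, a lncRNA on the plus strand that begins 203 bp from the *Gfra1* start. Of the 4 genes with a peak, *Gfra1* had its peak farthest from the start, and it lost the call when the window was narrowed to 1 kb. *Ret*, which encodes the receptor tyrosine kinase and lies on the minus strand of chromosome 6 from 118151748 to 118197744, had no peak in any sample. The peaks nearest to the *Ret* start were between 257 and 290 kb away in all 6 samples.

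*Etv5* encodes an ETS transcription factor whose expression in these cells is driven by GDNF and FGF signals. It lies on the minus strand of chromosome 16 from 22381313 to 22439570. Its peak in *Sirt7*-/- replicate 4 ran from 22439304 to 22439555, from 15 to 266 bp inside the gene, and was the narrowest of the 5 at 252 bp. The fold was 3.99, just below the list's median of 4.07, with a rank of 1489 of 2591 by fold and of 909 of 2591 by -log10 q. In *Sirt7*-/- replicates 2 and 3 the nearest peaks, at *Tra2b*, were 174 and 173 kb away. The call pattern of *Etv5* was shared by 593 protein-coding genes (2.76%), and that of *Zbtb16* and *Gfra1* by 793 (3.69%).

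**Figure D2:**
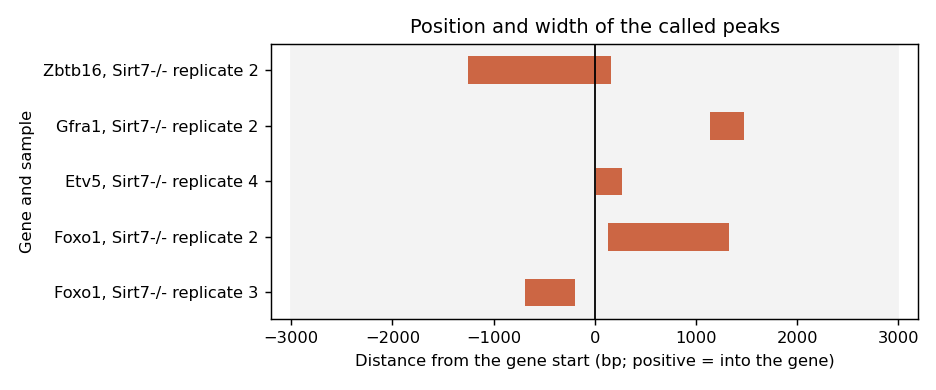
Bars show the extent of the 5 called peaks in bp from the start of each gene, with positive distances running into the gene and the shaded field marking the window of 3 kb on either side. The *Zbtb16* peak spans the start, the 2 *Foxo1* peaks lie on opposite sides of it, and the *Gfra1* peak lies 1136 to 1472 bp downstream.

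The other 6 genes, *Id4*, *Ret*, *Nanos2*, *Nanos3*, *Sall4* and *Lin28a*, had no promoter peak in any of the 6 samples, as was the case for 80.3% of all protein-coding genes. *Id4* encodes an inhibitor of basic helix-loop-helix factors and marks the cells with the greatest stem cell capacity. It lies on the plus strand of chromosome 13 from 48261116 to 48266028. The peak nearest to its start was 284 to 285 kb away in all 6 samples and was the same region in each of them. *Sall4* encodes a zinc finger transcription factor and lies on the minus strand of chromosome 2 from 168748332 to 168767201. In all 3 WT samples and in *Sirt7*-/- replicate 2 its nearest peak was that at *Adnp*, 560 kb away.

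The genes for RNA-binding proteins were not called either. *Nanos2* encodes a repressor of messenger RNAs that keeps spermatogonia undifferentiated, and lies on the plus strand of chromosome 7 from 18987524 to 18988962. Its nearest peaks were 24.7, 575 and 16.6 kb away in *Sirt7*-/- replicates 2, 3 and 4, and between 2171 and 9823 kb away in the WT samples. *Nanos3* encodes a related protein that protects early germ cells from death, and lies on the minus strand of chromosome 8 from 84173733 to 84176552. It came closest to a call among the genes without one. Its nearest peaks were 60.1, 7.05 and 15.7 kb away in *Sirt7*-/- replicates 2, 3 and 4, of which the second ran from 84183601 to 84183906. *Lin28a* encodes a protein that blocks the maturation of let-7 microRNAs, and lies on the minus strand of chromosome 4 from 134003330 to 134019196. Its nearest peaks were 51.3 kb away in WT replicate 2, 5333 kb away in WT replicate 3, 51.4 kb away in *Sirt7*-/- replicate 3 and 205 kb away in WT replicate 4 and *Sirt7*-/- replicates 2 and 4, so that its distances overlapped between the genotypes.

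The nearest peaks lay closer the more peaks a list held. Over the 10 genes its median was 646, 5333 and 1379 kb in WT replicates 2, 3 and 4, and 117, 215 and 185 kb in the *Sirt7*-/- replicates of the same numbers. WT replicate 3 had no peak on the chromosome of *Gfra1*, so its median is over 9 genes. Over all protein-coding starts on chromosomes with a peak, the medians were 571, 8352 and 2183 kb in WT and 162, 250 and 185 kb in *Sirt7*-/- samples. The values for the 10 genes were lower than those for all starts in 4 samples, equal at this rounding in *Sirt7*-/- replicate 4 and higher in WT replicate 2.

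**Figure D3:**
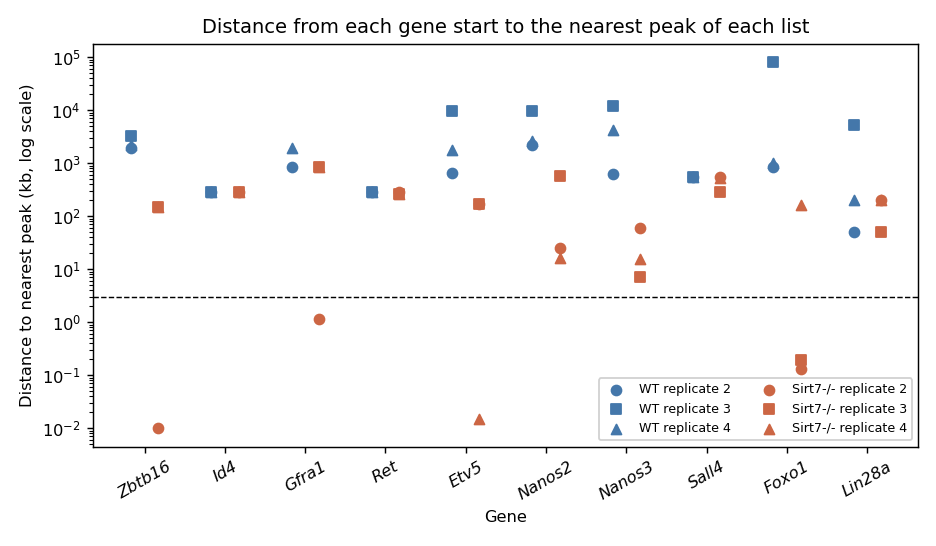
Points give the distance in kb, on a log scale, from each gene start to the nearest peak of each list, with WT in blue, *Sirt7*-/- in orange, the replicate by symbol and the dashed line at 3 kb. *Zbtb16* in *Sirt7*-/- replicate 2 has a distance of 0 and is drawn at 10 bp, and *Id4* and *Ret* have distances between 257 and 290 kb in all samples.

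None of the 10 genes had a peak in its body outside the promoter window, in any sample. The bodies of *Nanos2* and *Nanos3*, at 1439 and 2820 bp, lie wholly inside the window, so no such peak was possible there. Over all protein-coding genes such a peak was called in at least 1 of the 6 samples for 2.55%. The bodies of *Gfra1* and *Zbtb16*, at 220366 and 184429 bp, were the longest of the 10, and they held no peak beyond the promoter windows.

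The promoter sequences of the genes differed widely in CpG dinucleotides. Of the 10 genes, 7 had a sequence in the RefSeq promoter table of GRCm38.p6, which gives the 300 bases from 250 before to 50 after a transcript start. The sequences below are those of *Foxo1* (chr3:52268087-52268386, plus strand) and *Etv5* (chr16:22439521-22439820, minus strand), where a peak reached into the window, of *Gfra1* (chr19:58455349-58455648, minus strand), where the peak lay downstream of it, and of *Id4* (chr13:48260866-48261165, plus strand) and *Nanos2* (chr7:18987274-18987573, plus strand), which had no peak. They run 5′ to 3′ on the strand of the gene, and capitals mark every CpG.
Foxo1: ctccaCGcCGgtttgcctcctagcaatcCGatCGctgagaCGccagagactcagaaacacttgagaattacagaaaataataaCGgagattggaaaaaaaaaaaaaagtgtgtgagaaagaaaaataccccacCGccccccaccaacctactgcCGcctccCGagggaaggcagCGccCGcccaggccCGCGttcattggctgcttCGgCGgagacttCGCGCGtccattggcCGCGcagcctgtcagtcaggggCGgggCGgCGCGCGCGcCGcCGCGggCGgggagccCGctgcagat
Etv5: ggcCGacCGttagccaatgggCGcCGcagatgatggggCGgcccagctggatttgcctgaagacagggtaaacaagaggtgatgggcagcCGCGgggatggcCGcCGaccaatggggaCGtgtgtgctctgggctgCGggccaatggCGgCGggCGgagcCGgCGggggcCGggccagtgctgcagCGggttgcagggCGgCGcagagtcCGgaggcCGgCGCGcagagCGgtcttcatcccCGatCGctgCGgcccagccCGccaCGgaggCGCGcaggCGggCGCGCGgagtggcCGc
Gfra1: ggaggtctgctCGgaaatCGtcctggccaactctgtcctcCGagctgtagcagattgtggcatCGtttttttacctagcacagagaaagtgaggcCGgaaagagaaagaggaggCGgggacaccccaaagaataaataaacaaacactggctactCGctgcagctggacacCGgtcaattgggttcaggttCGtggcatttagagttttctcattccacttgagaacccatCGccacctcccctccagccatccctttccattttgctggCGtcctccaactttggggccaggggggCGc
Id4: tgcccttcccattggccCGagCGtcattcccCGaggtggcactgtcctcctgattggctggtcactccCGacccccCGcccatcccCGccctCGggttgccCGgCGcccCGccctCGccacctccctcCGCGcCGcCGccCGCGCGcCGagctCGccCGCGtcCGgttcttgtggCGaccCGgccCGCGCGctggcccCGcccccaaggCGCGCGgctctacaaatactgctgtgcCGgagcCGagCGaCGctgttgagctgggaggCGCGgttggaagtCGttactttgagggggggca
Nanos2: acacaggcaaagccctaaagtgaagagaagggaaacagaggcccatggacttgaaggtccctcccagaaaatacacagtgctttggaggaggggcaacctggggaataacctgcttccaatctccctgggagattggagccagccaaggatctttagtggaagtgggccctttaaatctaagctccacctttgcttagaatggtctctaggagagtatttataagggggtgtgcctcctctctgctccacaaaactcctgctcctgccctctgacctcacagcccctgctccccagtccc

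The *Foxo1* and *Etv5* sequences held 31 and 37 CpG dinucleotides, more than 86.5% and 93.1% of the 17492 protein-coding promoters of the table. The peak of *Sirt7*-/- replicate 3 covered 54 of the 300 *Foxo1* bases, and the *Etv5* peak covered 35 of its 300. *Gfra1* held 12, close to the median of 13 over all promoters, and its printed sequence belongs to a transcript start 548 bp inside the start of the gene table. *Nanos2* held 0, *Nanos3* held 3 and *Lin28a* held 10. The *Lin28a* sequence likewise belongs to a transcript start 380 bp inside the start of the gene table. The *Id4* sequence held 39 CpG dinucleotides, the most of the 7, and no sample had a peak within 284 kb.

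Among all 17492 promoters, a peak in any *Sirt7*-/- sample was called at 2.12% of those with 0 to 5 CpG dinucleotides and at 46.9% of those with 30 or more. In WT samples the shares were 0.507% and 15.6%. *Nanos2* and *Nanos3* belong to the first class, and *Id4*, *Etv5* and *Foxo1* to the last. The median number of CpG dinucleotides was 25 in promoters called in any *Sirt7*-/- sample, 28 in those called in any WT sample and 9 in those called in none.

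**Figure D4:**
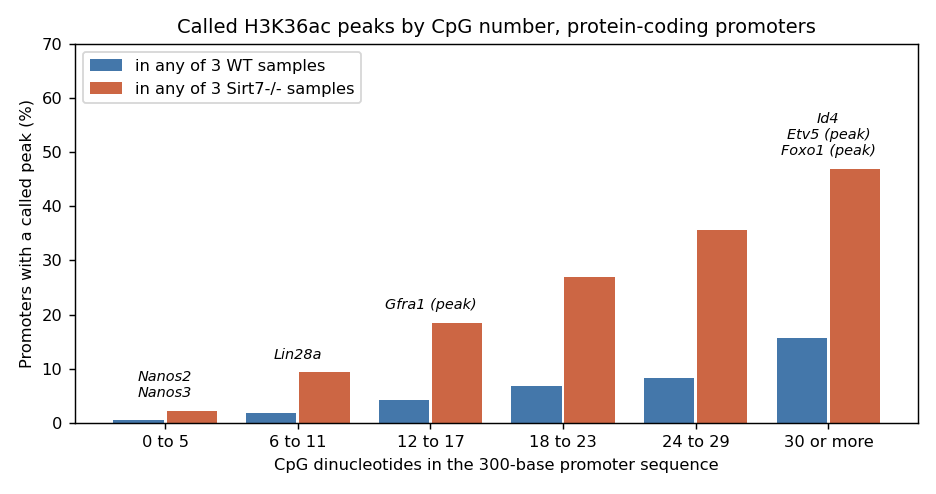
Bars show the percentage of protein-coding promoters with a called peak in any WT (blue) or any *Sirt7*-/- sample (orange), by the number of CpG dinucleotides in the 300-base sequence, with the 7 genes written above their class. The *Sirt7*-/- share goes from 2.12% in the first class to 46.9% in the last, which holds *Foxo1* and *Etv5* with a peak and *Id4* without.

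A few short motifs were searched on both strands of the same sequences. One was the CCAAT box, read as ATTGG on the opposite strand. Another was the GC box, GGGCGG, read as CCGCCC on the opposite strand, which itself contains a CpG. The last was the TATA box, TATAAA, read as TTTATA on the opposite strand. Each motif was counted on its own, whether or not it overlapped another. CCAAT occurred 3 times in each of *Foxo1* and *Etv5*, 2 times in each of *Id4* and *Nanos2* and 1 time in *Gfra1*, and in 39.2% of all promoters at least once. GGGCGG occurred 5 times in each of *Foxo1* and *Id4* and 3 times in *Etv5*, 1 time in each of *Nanos3* and *Lin28a*, and in 46.3% of all promoters. TATAAA occurred in *Nanos2* alone among the 7 genes, 1 time, and in 13.3% of all promoters. A match is a string of letters and says nothing of a bound factor.

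Lists of genes whose products act with those of the 10 were set beside them. Of 40 further genes of the GDNF-RET signal chain, from adaptors to kinases, 28 (70%) had a promoter peak in a *Sirt7*-/- sample, 8 (20%) in a WT sample, and 10 in at least 2 *Sirt7*-/- and no WT samples. Over all protein-coding genes the shares were 19.3%, 5.12% and 6.47%. Most of these genes are active in many cell types. *Grb2* and *Gab1*, which encode adaptors that link RET to RAS and PI3K, and *Pik3ca*, which encodes a catalytic subunit of PI3K, were each called in all 3 *Sirt7*-/- lists and in 0 WT lists (exact p = 0.1 by Fisher's test, adjusted p = 1 over all genes). The folds were 4.81 to 5.00 at *Grb2*, 3.65 to 4.68 at *Gab1* and 4.09 to 4.14 at *Pik3ca*. Peaks in both genotypes were called at *Gab2* and *Rheb*, each in 3 *Sirt7*-/- and 2 WT samples.

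Of 26 genes whose products work with NANOS2, NANOS3 and LIN28A on RNA, 16 (61.5%) had a promoter peak in a *Sirt7*-/- sample and 6 (23.1%) in a WT sample, against 19.3% and 5.12% of all protein-coding genes. They include *Cnot3*, which encodes a subunit of the CCR4-NOT deadenylase and was called in 3 *Sirt7*-/- and 2 WT samples, and *Cnot6l* and *Tut7*, called in 3 *Sirt7*-/- and 0 WT samples. *Tut7* and *Tut4*, the latter called in 2 *Sirt7*-/- and 0 WT samples, encode the enzymes that add uridines to let-7 precursors held by LIN28. Of 26 genes listed for SALL4 and PLZF, mostly of NuRD and other corepressor complexes, 17 (65.4%) had a promoter peak in a *Sirt7*-/- sample and 7 (26.9%) in a WT sample, against the same background. The list includes *Wt1*, which is also counted among the somatic markers below and had no peak. *Hdac2* was called in 3 *Sirt7*-/- and 2 WT samples, and *Mbd3* and *Mta3* in 3 *Sirt7*-/- and 0 WT samples. *Mbd2* was called in 1 WT and no *Sirt7*-/- sample. None of these genes passed Fisher's exact test over all genes (adjusted p = 1), and with 3 samples against 3 no gene could.

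Other lists hold genes named for the undifferentiated state of spermatogonia or for their differentiation. Of 34 further genes of undifferentiated spermatogonia, 10 (29.4%) had a promoter peak in a *Sirt7*-/- sample and 3 (8.82%) in a WT sample. *Itga6*, which encodes a surface integrin used to enrich stem cells, and *Dusp6*, which encodes a phosphatase induced by ERK, were called in 3 *Sirt7*-/- and 0 WT samples. *Itgb1* was called in 3 *Sirt7*-/- and 1 WT samples and *Glis3* in 2 and 0. *Taf4b* and *Adgra3* were called in 1 WT and no *Sirt7*-/- sample. Of 19 genes of spermatogonial differentiation, 3 (15.8%) had a peak in a *Sirt7*-/- sample and 2 (10.5%) in a WT sample, against 19.3% and 5.12% of all protein-coding genes. *Dmrt1*, which encodes a transcription factor that holds back meiosis, was called in 2 *Sirt7*-/- and 1 WT samples, and *Ythdc2*, which encodes an RNA helicase of the meiotic switch, in 1 of each.

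Of 30 markers of the somatic cells of the testis, 27 had no promoter peak in any sample, as was the case for 80.3% of all protein-coding genes. *Inha* was called in 2 *Sirt7*-/- samples, *Sox9* and *Dhh* were each called in 1 *Sirt7*-/- sample, and no WT sample had a peak at any of the 30. These 3 are among the 10 Sertoli cell genes listed, a share of 30%, against 19.3% of all protein-coding genes in *Sirt7*-/- samples. The 20 markers of Leydig, peritubular, endothelial and macrophage cells had no peak. Of 5 general germ cell genes, 1 had a peak in a *Sirt7*-/- sample. The part of remaining somatic cells in the calls at the 10 genes was not tested, since a called peak is no measure of expression and the lists cannot assign a peak to a cell type.

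**Figure D5:**
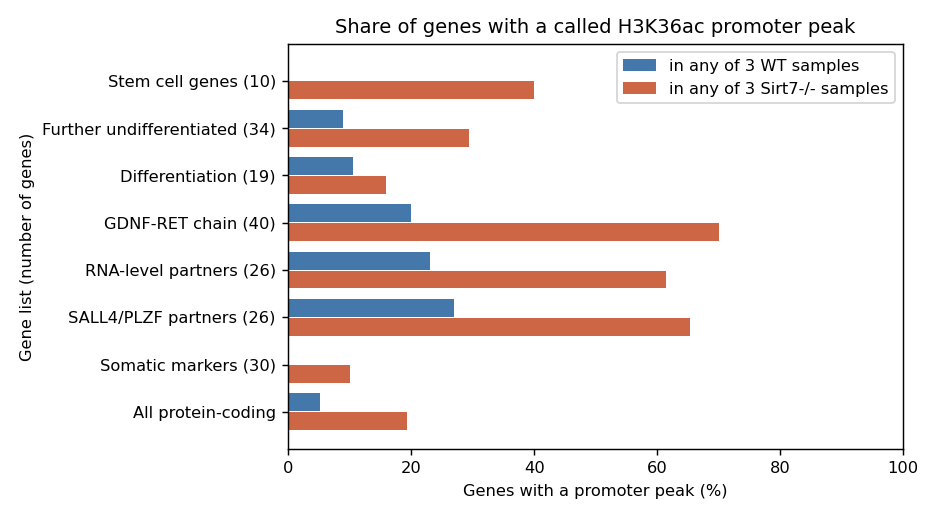
Bars give the percentage of genes in each list with a promoter peak in any WT (blue) or any *Sirt7*-/- sample (orange), with the number of genes in brackets and all protein-coding genes at the bottom. The 10 stem cell genes have 4 called in *Sirt7*-/- and 0 in WT samples, and the GDNF-RET list has 28 and 8 of 40.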

How the data were processed

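H3K36ac ChIP-seq peak lists of 3 WT and 3 *Sirt7*-/- samples were used. The input libraries entered through the authors' peak calling. Before deposit the authors used Trim Galore 0.6.6 for trimming, Bowtie2 2.4.4.1 for alignment (mm10) and SAMtools 1.19.2 (mapping quality 30 or more) and Sambamba (unique reads, no duplicates) for filtering, and MACS2 2.2.5 called broad peaks in each sample (cutoff 0.1). Replicates were not pooled and no spike-in factor was applied. The deposited lists give a position, a score (not used), a fold over input (a ratio) and the -log10 of p and of q. The study states the trimmed reads of each library, which were not used here. The lists do not give the reads left after filtering or the reads behind a peak, and peaks were ranked by fold and q within a list only. Where folds of different lists stand side by side, their difference between the genotypes was not tested.

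Peak positions are given 1-based. Gene starts came from the RefSeq table of GRCm38.p6 (1 start per gene, no exons). Strand came from the RefSeq promoter table for 17492 protein-coding genes and from GENCODE, by symbol and chromosome, for 3976, which left out 419 of 21887. Calls were compared with Fisher's exact test, two-sided, across all 21468 genes with Benjamini-Hochberg adjustment. Peak assignment was tested on simulated peaks. Alternatives were another window, a stricter -log10 q, equal list lengths, a minimum width, midpoints, either gene end, a replicate block, ranks by -log10 q and each replicate left out. The genes and lists were chosen with earlier results of these data known. The genes named are the 10, *Sirt7*, genes that share a peak with them, and list genes called in at least 2 *Sirt7*-/- samples or in a WT sample, of which some are not reported here. *Usp28*, *Tra2b*, *Adnp*, *Sox9*, *Dhh*, *Wt1* and the let-7 genes were named after their values were seen. Tests were run with SciPy 1.17.1 and statsmodels 0.14.6 in Python 3.11.15.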

Additional observations from a re-analysis of the deposited data

How the results depend on the processing

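The count of 0 genes with a WT promoter peak held in all 8 alternatives and with each WT replicate left out, and the count of 0 gene-body peaks held with midpoints. The 4 genes called in *Sirt7*-/- samples became 3 with a window of 1 kb (*Zbtb16*, *Etv5* and *Foxo1*), against 17.9% of all protein-coding genes. They also became 3 with a -log10 q of at least 2 (*Gfra1*, *Etv5* and *Foxo1*), against 13.7% of all protein-coding genes. They became 2 with peaks of at least 500 bp (*Zbtb16* and *Foxo1*). They also became 2 with a -log10 p of at least 5.99 in every sample (*Etv5* and *Foxo1*, an alternative chosen after seeing the data), and 0 with 64 peaks in every sample. Over all protein-coding genes the *Sirt7*-/- shares with these last 3 settings were 10.4%, 11.9% and 0.778%. The 1 gene called in at least 2 *Sirt7*-/- and no WT samples, *Foxo1*, became 0 under each of these and with a -log10 q of at least 2. The difference of 1.67 genes per sample became 1.33 with a window of 1 kb and 1 with a -log10 q of at least 2. It became 0.667 with peaks of at least 500 bp and 0.667 with the common minimum of -log10 p. It became 0 with 64 peaks in every sample, which removes most *Sirt7*-/- peaks by construction. Leaving out 1 replicate at a time gave 2 to 4, 0 to 1 and 1 to 2 for these 3 values. The *Etv5* rank of 1489 by fold became 909 by -log10 q. Counting every transcript start of the promoter table, also added later, changed none of these values. With a replicate block the difference was again 1.67. Beside it stand the mean shares of all protein-coding genes called per sample in the main setting, 11.6% in *Sirt7*-/- and 2.02% in WT samples. The deviations of same-numbered samples correlated at 0.0281, 0.0197 and 0.00767, and those of differently numbered samples at -0.0275 to 0.00912. The 2 highest values belonged to the same-numbered replicates 2 and 3, while *Sirt7*-/- replicate 4 correlated best with WT replicate 3. All the values were small, so the numbers were not taken to pair the samples.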

Other observations

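The region nearest to *Id4* was among the strongest of the lists. On chromosome 13 of mm10 a peak was called in all 6 samples, from 48545399 to 48546492 in *Sirt7*-/- replicate 4 and inside 48546035 to 48546526 in the other 5. The *Sirt7*-/- lists of replicates 2, 3 and 4 gave it folds of 7.74, 9.05 and 8.39, which placed it at rank 2 among 2840 peaks, rank 1 among 2045 and rank 1 among 2591. The WT lists of replicates 2, 3 and 4 gave it folds of 5.68, 5.68 and 6.63, at rank 60 among 906 peaks, rank 5 among 64 and rank 11 among 294. The closest gene start in the table was that of *Mirlet7a-1*, 7127 to 7905 bp away, followed in the same cluster by *Mirlet7f-1* and *Mirlet7d*. These encode let-7 microRNAs, whose maturation LIN28A blocks, and their mature 5p sequences from RefSeq (GRCm38.p6) are given with the seed, bases 2 to 8, in capitals. All 3 share the seed.
let-7a-5p: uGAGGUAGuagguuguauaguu
let-7f-5p: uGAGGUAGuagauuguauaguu
let-7d-5p: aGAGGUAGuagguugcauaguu

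Of the 12 let-7 and miR-98 genes of the table, 5 had a peak within 10 kb of the hairpin in a *Sirt7*-/- sample and 4 in a WT sample, of which 3 share the region of chromosome 13. The share of all genes with a peak within 10 kb was not computed, so these counts have no background. *Mirlet7d* lay at the edge of this limit, with the peak 9921 and 9985 bp away in *Sirt7*-/- replicates 2 and 3. In WT replicate 2 it was 9981 bp away, and *Mirlet7d* was counted in that WT sample only. *Mirlet7i* on chromosome 10 lay under a peak in all 3 *Sirt7*-/- lists and in 2 WT lists, with folds of 3.98 to 5.29 in *Sirt7*-/- and of 4.44 and 5.19 in WT samples. *Mirlet7e* on chromosome 17 had a peak 2898 to 3107 bp from its hairpin in all 3 *Sirt7*-/- lists and in 0 WT lists. These genes were looked at after their values had been seen, and their difference between genotypes was not tested.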
